A study of Mus musculus with 2 samples.

Results

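The mouse gene Sfmbt2 carries in 1 of its introns a large tandem array of microRNA genes, and the sequencing counts of that array in hippocampal tissue are described here. Members were the annotated miRNA genes on chromosome 2 whose symbol is Mir297, Mir466, Mir467 or Mir669, with an optional letter and copy number. The annotation held 71 such genes among 2202 miRNA genes, and the rule for members uses symbol and chromosome only. They fell into 4 subfamilies by symbol, with 5 Mir297, 23 Mir466, 14 Mir467 and 29 Mir669 genes. The 2 libraries came from tissue labelled as layer of hippocampus, of male B6CASTF1/J mice at 18 to 20 months of age. This strain is an F1 hybrid of a C57BL/6 and a CAST strain. The size range given for both libraries is below 30. The libraries form 1 group, for which no treatment and no control group is named, with biological replicate numbers 1 and 2. Each has a tissue entry of its own, while the donor entry is common to both. Whether they stem from different animals is not stated in the labels. The spread and p-values below therefore describe these samples only and may reflect technical differences.

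A microRNA is a short RNA cut from a hairpin transcript, and the bases near its 5′ end, the seed, pair with target messenger RNAs. Sfmbt2 encodes a Polycomb group protein and is known as an imprinted gene expressed from the paternal allele in extra-embryonic tissue. Its intronic microRNA array is found in rodents and is known for a role in placental development. The array grew by tandem duplication of units with stretches of alternating U and G or C and A, so that many copies are alike. A short read that fits several copies equally well cannot be assigned to a gene, which bears on each value below.

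Mature sequences of same-named genes on other chromosomes are shown because they display the repeat character of these subfamilies. In the RefSeq table (build GRCm38.p6), 0 of the 71 members and 9 of the 10 same-named genes elsewhere were matched by symbol, 8 of the latter with a mature sequence. A mature sequence from each of 4 of these genes follows, 5′ to 3′, with the seed (bases 2 to 8) in capitals.
mmu-miR-467g: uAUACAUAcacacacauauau
mmu-miR-466i-3p: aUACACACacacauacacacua
mmu-miR-466k: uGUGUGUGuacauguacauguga
mmu-miR-669n: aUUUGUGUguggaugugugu
Their genes lie on chromosome 5 (mature sequence at 34732872 to 34732892, minus strand), chromosome 13 (17747552 to 17747573), chromosome 3 (85467396 to 85467418) and chromosome 3 (115979905 to 115979924), the last 3 on the plus strand. The 7 letters of the miR-467g seed, read on the transcribed strand only, occurred in the hairpins of 62 of the 71 members, or 87.3%, against 3.80% of all other annotated miRNA hairpins. For the seeds of miR-466i-3p, miR-466k and miR-669n the shares were 64.8%, 60.6% and 12.7% of members, against 6.29%, 7.84% and 2.25% of other hairpins. The seeds not shown occurred in 56.3% (miR-466j), 16.9% (miR-466q), 14.1% (miR-467f) and 1.41% (miR-467h) of members. In other hairpins their shares were 3.10%, 2.16%, 4.83% and 0.610%. The sequences shown thus include the highest shares. The complete mature sequences were found in no member hairpin (0 of 71 for each). These matches describe letters in hairpins and do not say which part of a hairpin is the mature product.

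The libraries held 10594081 and 16131923 reads in replicates 1 and 2, of which 3758318 (35.5%) and 5598792 (34.7%) were assigned to miRNA genes in the sense direction. Reads that mapped to several places made up 51.5% and 46.7%, and they are not in any gene's count. Levels are given as sense counts scaled to 1000000 per library (CPM), and ± gives the SD over the 2 libraries (n = 2) throughout. As a tissue check, 3 microRNA genes described as enriched in neurons (Mir132, Mir128-1 and Mir137) each had 11601 CPM or more in both libraries. The 3 copies of Mir124a had 0 to 5 counts. A read that fits more than 1 of these copies is in no gene's count. Their low counts therefore do not give the level of Mir124a in the tissue. The endothelial gene Mir126a had 11853 and 10726 CPM in replicates 1 and 2. Genes of choroid plexus (3 genes, 2004 and 2957 CPM), leukocytes (2 genes, 800 and 751 CPM) and red cells (2 genes, 52.4 and 77.0 CPM) were also read. Of the choroid plexus genes, Mir34c had 1165 and 1491 CPM, Mir204 759 and 1038 CPM, and Mir1298 80.9 and 428 CPM. Each of these 3 was higher in replicate 2, Mir1298 by the widest margin. The leukocyte sum was mostly Mir150 (659 and 637 CPM), beside Mir142 (140 and 113 CPM). Whether the libraries differ in cell content, and the part of these other cells in the cluster's counts, was not tested. In whole tissue, fewer cells of a type and less RNA per cell cannot be told apart.

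All 71 members lay on the plus strand, the strand of the host gene, between 10466663 and 10518279 on chromosome 2 of mm10. This span of 51.6 kb sat inside a single intron of Sfmbt2 (gene at 10370510 to 10595253), which runs from 10461473 to 10523944 between exons 10 and 11 of transcript Sfmbt2-201. The starts of neighbouring members were a median of 298.5 bp apart, and their hairpins were 73 to 127 nt long. Member hairpins held longer dinucleotide repeats than most miRNA hairpins. The longest run of alternating U and G had a median of 8 nt in members and 4 nt over all miRNA genes. For the longest run of alternating C and A the medians were 9 and 3 nt. Same-named genes on other chromosomes had medians of 13 nt for U and G and 4 nt for C and A. Other miRNA genes within the span had 7 and 8 nt. Mir466 hairpins leaned to U and G (median runs of 9 nt for U and G and 6 nt for C and A), and Mir467 hairpins the other way (6 and 9 nt).

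The cluster as a whole was counted at a low level. The members summed to 3244 counts in replicate 1 and 4876 in replicate 2, which is 863 and 871 CPM, or 867 ± 5.48 CPM. That is 0.0867% of all sense counts. On the opposite strand the members had 0 counts in both libraries. Of the 71 members, 8 (11.3%) were detected, meaning 10 or more counts in both libraries, beside 17.4% of all 2202 miRNA genes. No count in either library was seen for 61 members (85.9%), beside 65.8% of all miRNA genes. For a gene whose reads fit 1 place, 0 counts still leave room for a level of 0.798 CPM (replicate 1) or 0.536 CPM (replicate 2), which is 3 counts. For a gene whose reads fit several places there is no such limit.

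The subfamilies were read very unequally. Mir467 genes held 68.3% of the cluster's counts in replicate 1 (Wilson 95% interval 66.7 to 69.9%) and 66.6% in replicate 2 (65.3 to 67.9%), from 3 detected genes of 14. Mir669 genes held 31.5% (29.9 to 33.1%) and 33.3% (32.0 to 34.6%), from 5 detected genes of 29. Mir467 and Mir669 therefore summed to 585 ± 7.03 and 281 ± 12.8 CPM, a ratio of 2.17 in replicate 1 and 1.999 in replicate 2. The order of these subfamilies was the same in both libraries, and the difference between them was far larger than their SDs in CPM. With TMM scaling of library sizes, which is used below, the SDs were wider, with sums of 589 ± 98.1 for Mir467 and 282 ± 30.8 for Mir669. Mir466, with 23 genes, had 5 counts in each library, all in Mir466n (1.11 ± 0.309 CPM), and none of its genes was detected. All 5 Mir297 genes had 0 counts in both libraries. Counting error alone enters these intervals and limits. Amplified reads that carry no molecular identifier are not separate molecules, and the intervals may then be too narrow.

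Mir467d and Mir467e had the most assigned counts of the array. Together with Mir669c they gave 87.4% of its counts in replicate 1 and 86.7% in replicate 2. Mir467d (ENSMUSG00000077021.2, 10507630 to 10507714) had 995 and 1936 counts in replicates 1 and 2, or 305 ± 57.3 CPM, and ranked 138 among the 2202 miRNA genes by mean level. Mir467e (ENSMUSG00000076948.2, 10505721 to 10505807) had 1172 and 1246 counts, or 267 ± 63.1 CPM, and ranked 144. Which of them was higher depended on the library, since the ratio of Mir467e to Mir467d was 1.18 in replicate 1 and 0.644 in replicate 2, so their order is not settled by these data. Both genes lie at the 3′ side of the array, with starts 39.1 and 41.0 kb from the first member. The third gene, Mir669c (ENSMUSG00000076118.1, 10509296 to 10509404), had 669 and 1047 counts, or 183 ± 6.36 CPM. It stood below both Mir467 genes in each library.

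**Figure D1:**
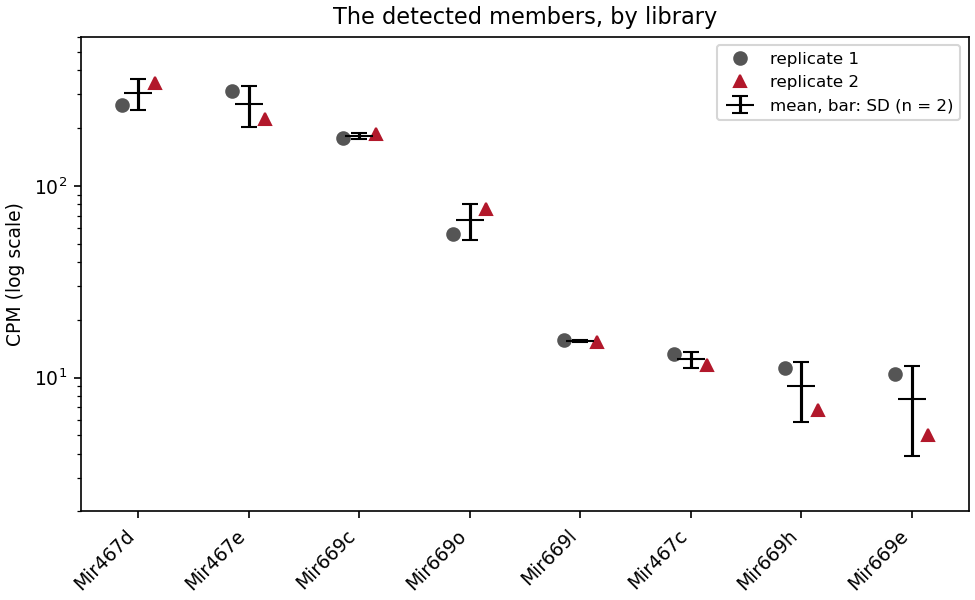
CPM (log axis) of the 8 detected members in replicate 1 (circles) and replicate 2 (triangles), with the mean (line) and SD (bar, n = 2). Mir467d and Mir467e change places between the libraries, and the lowest 4 members reach at most 15.7 CPM.

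The other 5 detected members were lower. Mir669o (10514300 to 10514395) had 211 and 425 counts in replicates 1 and 2, or 66.03 ± 13.98 CPM, and its level overlapped no other member's. Mir669l (10468971 to 10469068) had 59 and 86 counts (15.5 ± 0.239 CPM), and Mir467c (10473931 to 10474027) had 50 and 65 counts (12.5 ± 1.20 CPM). Mir669h, the last member along the chromosome (10518155 to 10518279), had 42 and 38 counts (8.98 ± 3.10 CPM), and Mir669e (10467495 to 10467613) had 39 and 28 counts (7.69 ± 3.80 CPM). The last 2 do not differ beyond their spread, and the range of Mir669h, 6.79 to 11.2 CPM, nearly reaches that of Mir467c, 11.6 to 13.3 CPM. Outside the detected genes, only Mir466n (5 and 5 counts) and Mir669f (2 and 0 counts, singled out after its value was seen) had any count. Mir466m, the first member along the chromosome, had none.

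Counted members lay toward the 2 ends of the array. For description, the array was divided at its longest stretch of members without a count, so the 0 of that stretch follows from how it was drawn. The first 13 members, from Mir466m to Mir467c over 7.37 kb, included 3 detected genes and summed to 35.9 ± 5.61 CPM. The next 38 members, from Mir466b-1 to Mir669a-12 over 29.7 kb, had no count in either library. The last 20 members, from Mir467e to Mir669h over 12.6 kb, included 5 detected genes and summed to 831 ± 11.1 CPM. The uncounted middle is the regular part of the array. It holds 11 Mir467 genes whose starts are a median of 2454 bp apart, and a Mir467, a Mir466 and a Mir669 gene follow each other in that order 10 times.

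The sequences of the hairpins bear on which members could receive an assigned read. Of the 71 members, 70 share a stretch of at least 20 nt with another annotated hairpin, and the exception is Mir466g. Each hairpin was therefore divided into all its windows of 22 nt, about the length of a mature microRNA, and the windows found in no other annotated hairpin on the transcribed strand were counted. In 32 members (45.1%) no window was their own, and these 32 had 0 counts in both libraries. Since reads that map to several places are not counted, this 0 is largely set by the counting. Of the 32 members, 31 lie in the middle stretch, where the remaining 7 members kept 40.0% of their windows or less. All 8 detected members had windows of their own, from 39.1% of windows in Mir467d to 96.9% in Mir669e.

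**Figure D2:**
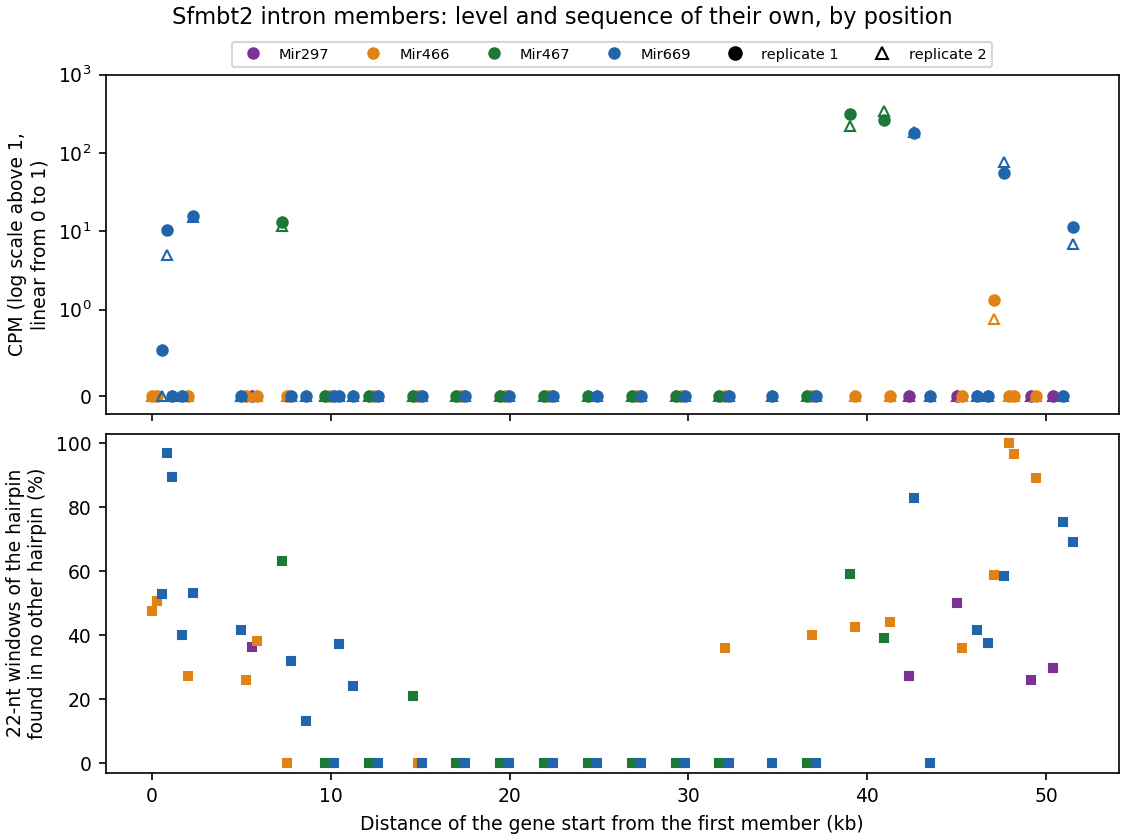
Top, CPM of each member (log axis above 1, linear from 0 to 1) against the distance of its start from the first member in kb, with circles for replicate 1, triangles for replicate 2 and a colour for each subfamily. Bottom, the percentage of its 22-nt windows that occur in no other annotated hairpin, and the 38 members without counts in the middle hold 31 of the 32 members at 0%.

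Identical copies make up much of this stretch. The hairpins of 26 members are letter for letter the same as that of at least 1 other annotated miRNA gene, in 8 sets, and each set had 0 counts. All 26 lie among the 38 members of the middle stretch. The largest set is Mir669a-4 to Mir669a-12, with 9 genes of 87 nt. The next is made of 6 members, Mir467a-2, Mir467a-4, Mir467a-5, Mir467a-7, Mir467a-8 and Mir467a-9, and a further miRNA gene without a Mir symbol of these subfamilies, with 83 nt. A further set joins Mir467a-3, Mir467a-6 and Mir467a-10. Reads of such copies fit several places, and the tables do not say how many of the 5458072 and 7527048 reads that mapped to several places in replicates 1 and 2 came from this array. The level of the cluster in tissue, and the levels of Mir467a, Mir669a, Mir466b and Mir466c in particular, are therefore not given by these counts.

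The counted Mir467 genes show how partial sharing can look. The hairpin of Mir467d shares 60 nt with each of 10 other hairpins, among them Mir467a copies, and its own windows fall mainly in the first of its equal parts, the 5′ part, with 19 of 32 windows there and 6 of 32 in the 3′ part. In Mir467e the numbers were 20 of 33 in the 5′ part and 19 of 33 in the 3′ part. Its closest hairpin, with 48 shared nt, is that of Mir467c. Mir669c has 29 of 44 windows of its own in the 5′ part and all 44 in the 3′ part. Counts of Mir467d, Mir467e and Mir467c could thus leave out reads from the shared parts, and the extent was not tested.

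Detection was more frequent where over 50% of the windows were a gene's own, in members and in other miRNA genes, except that Mir466g, the 1 member with all windows its own, was not detected. Of members with more than 50% but not all windows of their own, 7 of 14 were detected, against 57 of 393 other miRNA genes (14.5%). Of members with up to 50%, 1 of 24 was detected, which is Mir467d, against 2 of 294 other genes. With no window of their own, 0 of 32 members and 2 of 266 other genes were detected. Other miRNA genes with all windows of their own were detected in 315 of 1178 cases (26.7%). These are descriptions without a test, because members share a transcript and sequence.

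**Figure D3:**
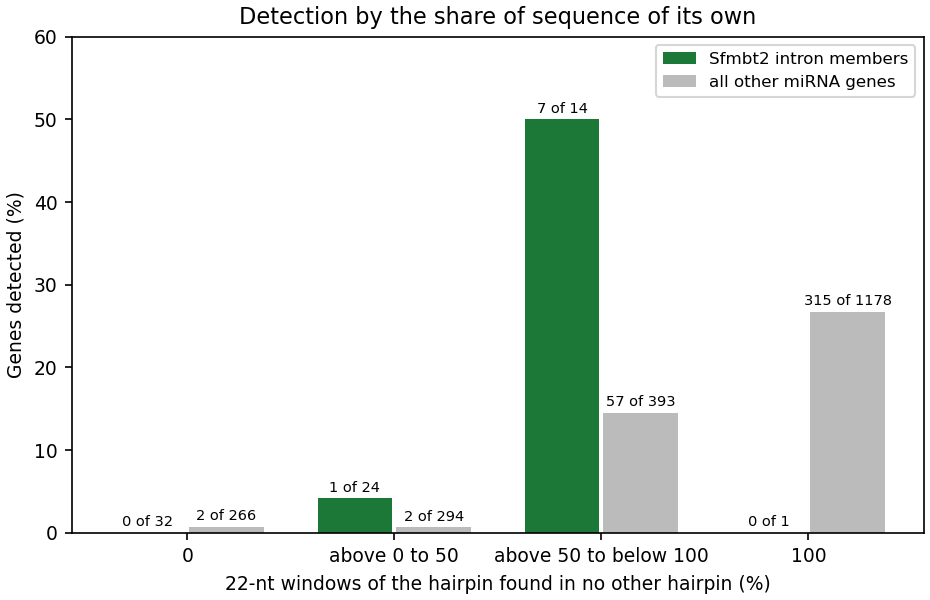
Percentage of genes detected (vertical axis, from 0), for members (green) and all other miRNA genes (grey), by the percentage of 22-nt windows found in no other annotated hairpin, with numbers of genes above the bars. Members reach 7 of 14 in the bin above 50 to below 100% and 0 of 32 in the bin without any such window, which the counting largely keeps low.

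Many members with sequence of their own had no counts, as had many other miRNA genes. Of the 39 members with at least 1 window of their own, 29 (74.4%) had 0 counts in both libraries. Of the 1865 other miRNA genes with such a window, 60.4% had none. The groups are unlike, since 1178 of the other genes but only 1 member had all windows of their own. Above 50% but below 100%, 9 of 14 members (64.3%) had a count, beside 88 of 393 other genes (22.4%). Above 0 and up to 50%, 1 of 24 members (4.17%) and 9 of 294 other genes (3.06%) had one. Among the 29 members without counts were Mir466g with all windows its own, Mir466h with 96.7%, Mir669b with 89.5%, Mir466l with 89.0% and Mir669i with 75.5%. These genes were chosen after their values were seen. Of members with such windows, 3 of 4 Mir467, 5 of 16 Mir669, 0 of 14 Mir466 and 0 of 5 Mir297 genes were detected. Of the 1865 other genes, of which 1178 had all windows of their own, 374 were detected (20.1%). The subfamilies were not tested against each other. The median share of own windows in these members was 49.1% for Mir467, 47.3% for Mir669, 43.4% for Mir466 and 29.9% for Mir297. Copies outside annotated hairpins were not searched, so a window of a hairpin's own may still occur elsewhere in the genome.

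The libraries were compared gene by gene with an exact two-sided binomial test on counts, with library sizes scaled by TMM and p-values adjusted by Benjamini-Hochberg over the 384 detected genes. The test compares these libraries and covers counting error only, and the edgeR common dispersion put the coefficient of variation between them at 34.4%. It called 4 of the 8 detected members, beside 65.1% of all detected genes. All 4 were higher in replicate 1. That is 4 of 8 detected members, beside 34.1% of all detected genes, and 4 of 4 called members, beside 131 of 250 called genes (52.4%). Mir467e was 1.75-fold higher (adjusted p = 3.09e-41), Mir669e 2.58-fold (adjusted p = 0.000295) and Mir669h 2.05-fold (adjusted p = 0.00254). Mir669c was 1.19-fold higher in replicate 1 on this scale (adjusted p = 0.00116) but 1.05-fold higher in replicate 2, and not called, with total-count scaling.

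Mir467d and Mir669o differed little on the TMM scale, by 1.05-fold and 1.09-fold, both higher in replicate 2 (adjusted p = 0.288 and 0.407). With total-count scaling both were called higher in replicate 2, by 1.31-fold (adjusted p = 1.08e-11) and 1.35-fold (adjusted p = 0.000563). That scaling, which differs from TMM by a factor of 1.25 between the libraries, called 5 members, 3 of them higher in replicate 1, and 271 genes in all, 76 of them higher in replicate 1 in place of 131 of 250. The median absolute difference was 1.35-fold over the 8 members and 1.36-fold over all 384 genes. The members thus differed in size by about as much as detected miRNA genes in general. In direction, 6 of the 8 were higher in replicate 1 on the TMM scale, beside 195 of all 384 detected genes, and 5 of 8 in CPM, beside 124 of 384. The members had a median log2 difference of 0.43 on the TMM scale against 0.01 for all detected genes. The near-equal CPM of the cluster in the 2 libraries is a property of the total-count scale, and on the TMM scale the SD of its sum was 129 CPM around 872 CPM.

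Same-named genes on other chromosomes also had few counts. Of 10 such genes, 0 were detected and 9 had no count, beside 17.4% and 65.8% of all miRNA genes. The only one with a count was Mir466q on chromosome 3, with 1 and 0 counts in replicates 1 and 2. The hairpins of the 10 genes had more sequence of their own than those in Sfmbt2, with a median of 77.0% of windows against 25.9%. The other large imprinted microRNA array of the mouse, from Mir379 to Mir410 on chromosome 12, is built of dissimilar hairpins. It was also read very differently. Reads lost to other copies and a different level in the tissue cannot be told apart in this comparison. Of its 38 annotated miRNA genes 34 were detected, 36 had all windows of their own, and their sum was 45408 ± 2802 CPM.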

How the data were processed

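The deposited tables hold raw read counts per miRNA gene, without normalization, on mm10 with GENCODE M21 per the text deposited with them. No aligner or counter is named there (not given in the sources used here). Column 3, the stranded column with the larger total, was taken as sense, and the 4 summary lines (64.5% and 65.3% of reads) stayed out of library sizes. Symbols, positions and hairpin sequences came from GENCODE M21, and mature sequences from RefSeq. Windows of 22 nt and shared stretches of 20 nt were searched over annotated hairpins on the transcribed strand. Exact copies in the whole genome were not analysed here. With 1 group, no contrast between conditions exists. Library differences used edgeR 4.0.16 (TMM, common dispersion), scipy 1.17.1 (binomial test) and DESeq2 1.42.0 size factors as an alternative, at an adjusted p of 0.05. The binomial test was tested on simulated data. The counts of the 2 tables differed far beyond sampling noise (chi-square 243102, 383 degrees of freedom), and both were kept as samples. Reads of the CAST allele that differ from mm10 may be lost, which was not tested. Named genes are members with 10 or more counts in either library, the highest of each subfamily, members with hairpins identical to others, the first and last member, Sfmbt2 and the highest same-named gene elsewhere. No member with identical mature sequence could be listed, so identical hairpins were used. Members and lists were chosen with earlier results of these data known.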

Additional observations from a re-analysis of the deposited data

How the results depend on the processing

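The unstranded counts moved the summed level of the cluster from 867 to 939 CPM, of Mir467 from 585 to 633 CPM and of Mir669 from 281 to 304 CPM, because their total is smaller. With all reads as denominator the sums were 304 for the cluster, 0.391 for Mir466, 205 for Mir467 and 98.6 for Mir669, per 1000000 reads. When members sharing 20 nt or more with a further hairpin were left out, each of these 4 sums was 0. That result was fixed by the filter, which removed 70 of the 71 members and kept only Mir466g, a gene with 0 counts. Mir297 was 0 under every alternative run. TMM scaling and DESeq2 size factors (872 CPM for the cluster under both) changed each sum by less than 1 SD. Each replicate alone gave 863 to 871 CPM for the cluster, which with 2 libraries restates their difference and shows no stability. The number of detected members was 8 or 9 under the other count minimums, with unstranded counts and without either replicate, and 4 or 5 members differed between libraries under the scalings and filters run. The member with the most assigned counts was Mir467e without replicate 2 (36.1% of the cluster's counts) and Mir467d without replicate 1 (39.7%). Members without an assigned read, such as the Mir467a copies, cannot be ranked in this way. Windows of 18, 20 or 24 nt, chosen after seeing the data, left the same number of members, 32, with no window of their own. No paired analysis was possible because the series has 1 group. Depth limits the precision of members with under 100 counts, and how many reads members lost to other copies was not tested.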

Other observations

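Between the first and the last member lie 46 further annotated miRNA genes without a symbol of the 4 subfamilies. They had 3 counts in replicate 1 and 0 in replicate 2, and 44 of them (95.7%) had none in either library, beside 65.8% of all miRNA genes. The counts were in Gm26491 (2 and 0) and Gm25263 (1 and 0), both named after their values were seen. Of the 46 hairpins, 22 had no 22-nt window of their own and 21 were identical to another annotated hairpin.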
